A study of Mus musculus with 23 samples.

Results

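The genes described here encode the hyaluronan-based matrix of the brain: the lecticans *Acan*, *Bcan*, *Ncan* and *Vcan*, the link proteins *Hapln1*, *Hapln2* and *Hapln4*, and the hyaluronan synthases *Has2* and *Has3*. They were taken by name, as the rows whose Ensembl identifier the GRCm39 annotation gives to these symbols, and make up 9 of the 56941 genes in the count files. RNA came from primary hippocampal neurons of mice homozygous for Nedd8cKO, an allele with loxP sites around exons of *Nedd8*, dissected on postnatal day 0. The neurons were infected on day 1 in vitro with a lentivirus carrying RFP, or CRE-recombinase tagged with RFP (CRE), both under the Synapsin1 promoter, and were harvested on day 12 by the labels and on day 13 by the methods. Of 23 libraries, 12 CRE and 11 RFP, the comparison used the 21 in the study's own count table, 11 CRE and 10 RFP. Libraries are named by the number beside CRE or RFP in the labels and, after a hyphen, by the replicate. The table is without CRE 3-3 and RFP 3-2, whereas the methods name CRE 1-3 and CRE 3-3 as the libraries removed, and on the 21 that this leaves the log2 fold changes of *Acan*, *Ncan* and *Hapln1* were 2.12, -1.17 and -1.80 (edgeR adjusted p = 0.00712, 2.89e-06 and 6.36e-07). The labels do not say whether a library was a separate culture or animal. The paper's legends for these RNA data count fewer animals or biological replicates than libraries. The p-values therefore measure the spread between libraries, which may be technical.

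Hyaluronan is a long unbranched sugar chain that hyaluronan synthases extrude through the plasma membrane. Lecticans are chondroitin sulfate proteoglycans that bind this chain with their N-terminal end, and link proteins clamp the lectican onto it. Together with tenascins they form the loose matrix of the young brain and, later, the perineuronal nets that wrap the soma of many inhibitory neurons. Aggrecan (*Acan*) is the core component of these nets. Neurocan (*Ncan*) and versican (*Vcan*) are known from the developing brain, and brevican (*Bcan*) from the mature brain, where astrocytes make much of it.

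*Acan* RNA was higher and *Ncan* and *Hapln1* RNA was lower in CRE than in RFP libraries. *Acan* rose 5.36-fold, while *Ncan* fell by 58.1% and *Hapln1* fell by 71.9% in the fit over all genes. With counts summed over libraries that share a first number, *Acan* was not called (edgeR adjusted p = 0.0944), while *Ncan* and *Hapln1* were. *Bcan*, *Vcan*, *Hapln4* and *Has3* did not pass the test, and *Hapln2* and *Has2* had too few counts to be tested. Called genes, meaning those with an edgeR adjusted p under 0.05, were thus 1 higher and 2 lower among the 7 members tested, 14.3% and 28.6%. Over all 14488 genes tested, 16.4% were called higher and 13.8% lower. *Hapln1* alone passed both cut-offs that the study used to filter genes, 1.3 for the size of the log2 fold change and 6 for the -log10 of the p-value, with an unadjusted edgeR p of 7.73e-07, and 2.49% of all genes passed them. With the adjusted p in its place no member passed, and 1.39% of all genes did. RNA from fewer cells of a type and less RNA per cell cannot be told apart in these bulk libraries.

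In GRCm39 the lectican and link protein genes lie side by side as pairs. *Acan* lies on chromosome 7 from 78702964 to 78764847 on the plus strand, and its neighbour *Hapln3*, on the other strand, ends 2 bases from its end. *Ncan* lies on chromosome 8 from 70538926 to 70573523 on the minus strand and *Hapln4* from 70536106 to 70543533 on the plus strand, so that the genes overlap tail to tail. Exons of *Ncan* and *Hapln4* share 1255 bases on opposite strands, and since the strand setting of the counting is not stated, reads of that stretch cannot be assigned with certainty to either gene. *Vcan* on the minus strand of chromosome 13, from 89803431 to 89890814, is separated by 43.5 kb from *Hapln1*, on the plus strand from 89686581 to 89759950. *Bcan* on the minus strand of chromosome 3, from 87894835 to 87910177, and *Hapln2*, from 87926800 to 87934890 on the same strand, are 16.6 kb apart. *Has2* lies on chromosome 15 from 56528342 to 56557999 on the minus strand and *Has3* on chromosome 8 from 107596874 to 107611198 on the plus strand. The neighbours *Vcan* and *Hapln1* did not share a call, and beside *Ncan*, called lower, *Hapln4* at -0.70 did not pass in the comparison but was called lower in 7 of 37 alternatives.

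The sequences before the transcription starts of *Acan* and *Ncan*, the lecticans called in opposite directions, are shown to set their base composition side by side. They are the 250 bases upstream of the RefSeq start, from a RefSeq promoter table of GRCm38.p6, and each matched GRCm39 exactly at a single place on its chromosome, *Acan* at chr7:78702724-78702973 on the plus strand and *Ncan* at chr8:70573495-70573744 on the minus strand. Capitals mark matches on either strand to TGACNNNGC, the core of the antioxidant response element, to the E-box CANNTG and to the TATA box TATAAA.
Acan: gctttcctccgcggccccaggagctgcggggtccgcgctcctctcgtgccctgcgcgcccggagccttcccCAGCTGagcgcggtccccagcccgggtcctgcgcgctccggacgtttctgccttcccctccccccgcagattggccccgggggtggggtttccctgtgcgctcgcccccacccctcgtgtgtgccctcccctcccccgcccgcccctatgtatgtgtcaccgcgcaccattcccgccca
Ncan: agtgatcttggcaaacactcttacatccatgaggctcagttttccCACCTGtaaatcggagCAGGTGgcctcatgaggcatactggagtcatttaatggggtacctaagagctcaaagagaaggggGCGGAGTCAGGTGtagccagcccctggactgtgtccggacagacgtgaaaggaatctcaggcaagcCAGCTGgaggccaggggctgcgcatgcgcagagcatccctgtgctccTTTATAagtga
The *Acan* sequence was 74.4% G and C with 26 CpG dinucleotides, and that of *Ncan* 54.4% with 6, where the median of the table's 32851 promoters was 52.4% and 6. The *Acan* stretch holds 1 E-box match, from 179 to 174 bases before the start. The *Ncan* stretch holds 4 E-box matches, 1 match to TGACNNNGC from 124 to 116 bases before the start, which overlaps an E-box match, and 1 to TATAAA from 11 to 6 bases before the start. Of all promoters of this length, 66.2% held CANNTG, 10.2% TGACNNNGC and 12.4% TATAAA. A match of letters is a description and no evidence of binding.

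**Figure D1:**
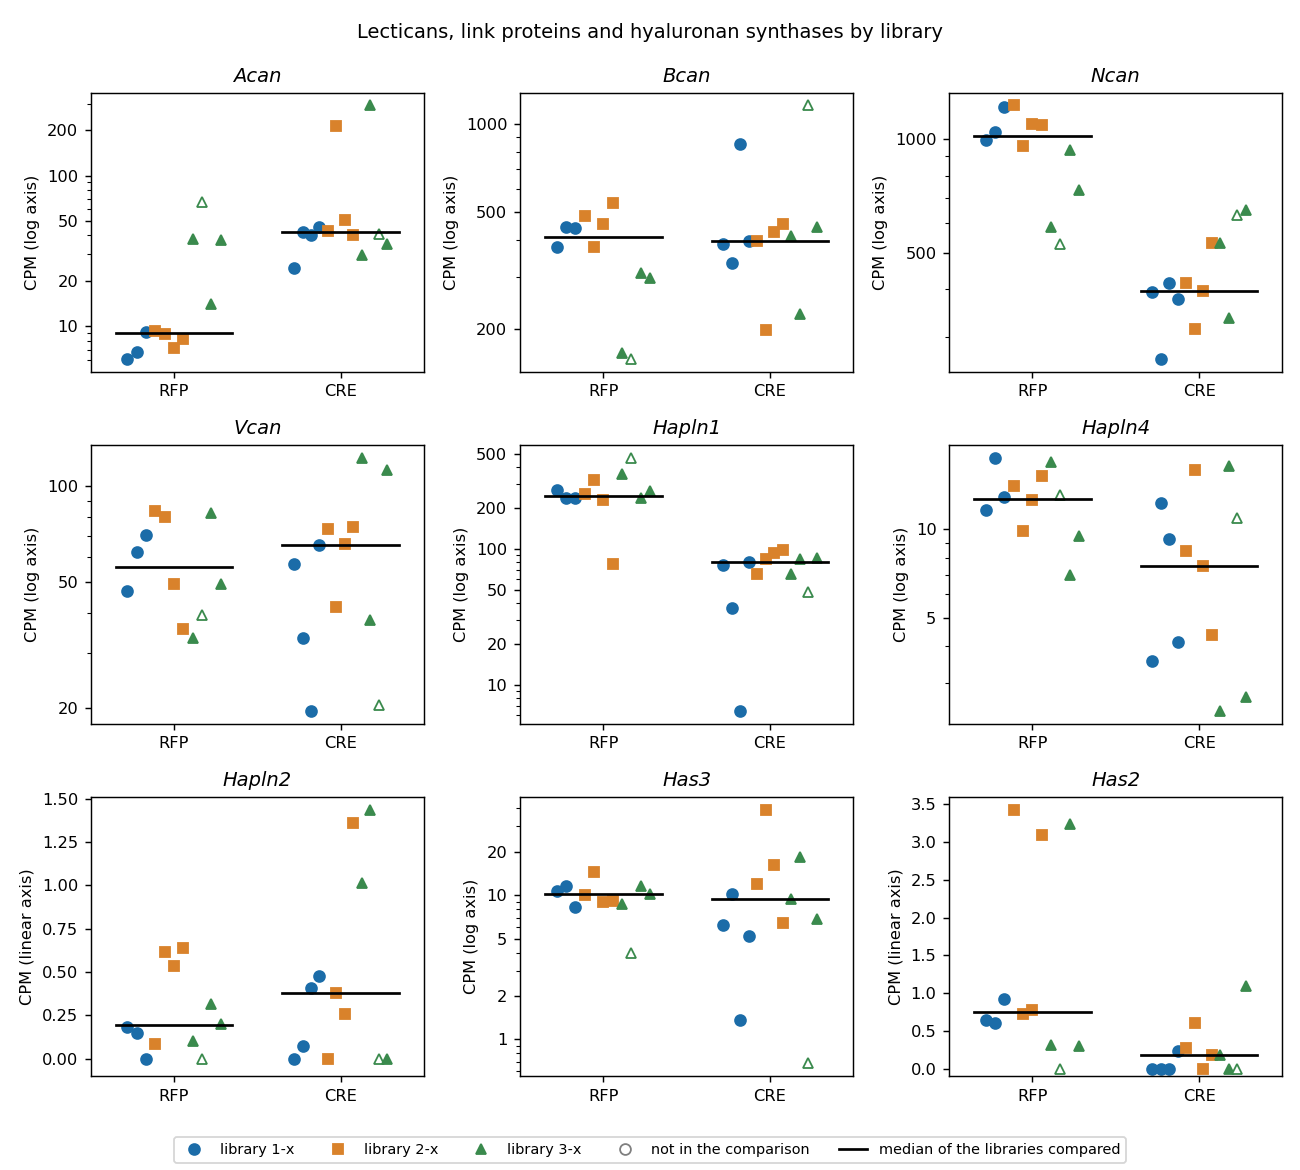
CPM (counts scaled to 1000000 per library) of the 9 genes in each RFP and CRE library, 1 point per library, with colour and shape giving the number before the hyphen of the library name and a bar the median of the libraries compared. Axes are logarithmic except for *Hapln2* and *Has2*. *Acan* medians were 8.99 in RFP and 42.5 in CRE, *Ncan* medians 1019 and 396, and *Hapln1* medians 244 and 80.2.

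Quality and cell type markers also differed between the libraries. Totals of the 21 libraries ran from 7430401 to 17112815 counts. *Nedd8* itself had 44.1 to 76.0 CPM in RFP and 5.92 to 18.0 CPM in CRE libraries, with no overlap. CRE 1-3, CRE 3-3 and RFP 2-4 stood apart, with Spearman correlations of 0.395 to 0.723 between gene deviations and GC content, against -0.311 to 0.094 in the other 20, and with 0.261% to 3.43% of counts from mitochondrial genes, against 7.0% to 11.1%. CRE 3-3, which had the lowest total at 1546796 counts, and RFP 3-2 are outside the comparison. Of 12 neuron markers all were tested, with summed levels of 7170 to 8470 CPM in RFP and 4110 to 7130 CPM in CRE libraries, and 6 were called lower, led by *Syn1*, *Rbfox3* and *Stmn2* at log2 fold changes of -0.77, -1.03 and -0.80 (edgeR adjusted p = 1.23e-06, 9.87e-05 and 0.000612), and 1 higher, *Nefm* at 0.54 (edgeR adjusted p = 0.0368). Glutamatergic markers summed to 2700 to 5140 CPM in RFP and 1060 to 2040 CPM in CRE libraries, and GABA neuron markers to 2440 to 4090 and 1670 to 3200 CPM. Astrocyte markers summed to 3740 to 8020 CPM in RFP and 1670 to 5370 CPM in CRE libraries, so the cultures held glia as well as neurons, and the Synapsin1 promoter that drives CRE is active in neurons.

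*Acan* had 6.07, 8.99 and 37.8 CPM in the lowest, the median and the highest RFP library, and 24.5, 42.5 and 292 CPM in CRE libraries. The means were 14.5 ± 12.4 CPM (SD, n = 10) in RFP and 77.8 ± 88.3 CPM (SD, n = 11) in CRE. The groups overlapped: 8 of 11 CRE libraries exceeded the highest RFP library compared. The overlap came from the RFP libraries numbered 3. Those compared had 37.8, 14.1 and 37.5 CPM, while those numbered 1 and 2 stayed between 6.07 and 9.26 CPM. RFP 3-2, outside the comparison but not among the libraries that the methods name as removed, had 67.2 CPM. That was above every CRE library but CRE 2-2 and CRE 3-2. At the other end, CRE 2-2 with 213 CPM and CRE 3-2 with 292 CPM stood far above the remaining CRE libraries, of which the highest had 50.5 CPM. The log2 fold change was 2.42 ± 0.484 (SE), with an edgeR adjusted p of 0.000393.

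Leaving out CRE 2-2 and CRE 3-2, a choice made after seeing the values, brought the log2 fold change of *Acan* to 1.39 ± 0.326 (SE, edgeR adjusted p = 0.00229). With counts summed over the libraries that share a first number, which leaves 3 sums a group, the log2 fold change was 2.42 and the edgeR adjusted p 0.0944, so the call did not hold there. Adjusted p ranged from 1.2e-05 to 0.0944 over all alternatives. By number of the libraries, the log2 fold change of *Acan* was 2.35 among those numbered 1, 3.36 among those numbered 2 and 1.99 among those numbered 3. Within numbers 1 and 2 every CRE library lay above every RFP library, and within number 3 they overlapped. There CRE 3-2 alone lay above every RFP library. CRE 3-1 and CRE 3-4, at 29.85 and 35.03 CPM, lay below RFP 3-1 and RFP 3-4, at 37.77 and 37.53 CPM.

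The libraries rich in *Acan* also had low astrocyte marker sums. CRE 3-2 had the lowest sum of astrocyte markers of all libraries, 1670 CPM, and CRE 2-2 the next lowest CRE sum in the comparison, 3680 CPM. Among RFP libraries in the comparison, 3-4 and 3-1 had the lowest sums, 3740 and 4090 CPM, and the highest GABA neuron marker sums, 4020 and 4090 CPM. CRE libraries 2-2 and 3-2 had GABA neuron marker sums of 1870 and 2280 CPM, within the range of the other CRE libraries. The part of these cell type levels in the *Acan* values was not tested.

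**Figure D2:**
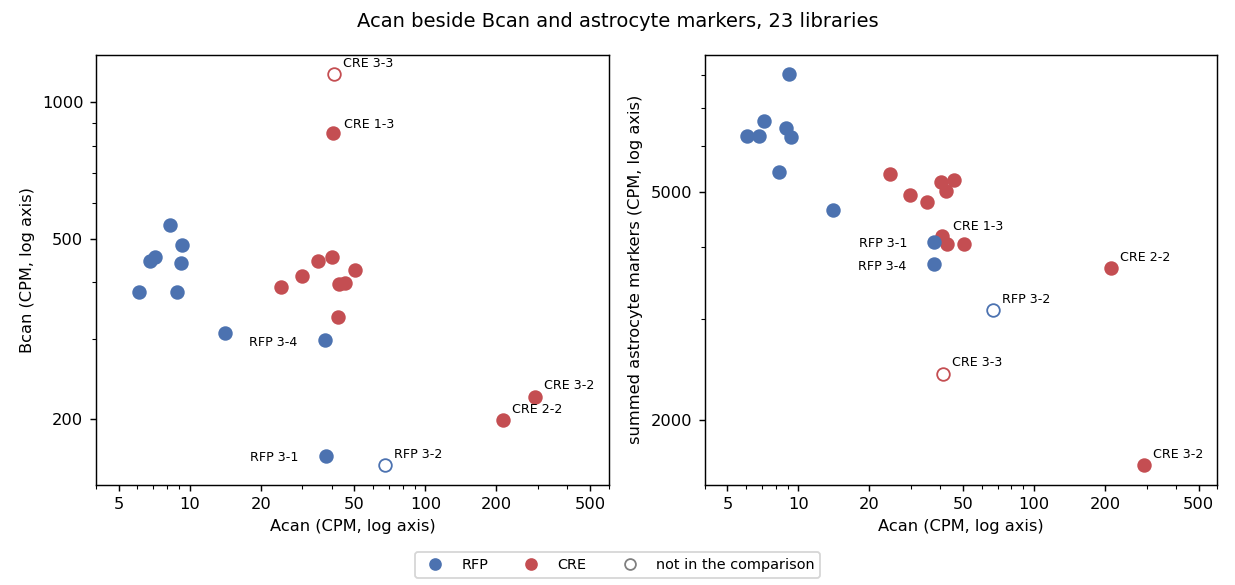
*Acan* CPM (horizontal, logarithmic) in the 23 libraries against *Bcan* CPM (left) and the summed CPM of 10 astrocyte markers (right), both logarithmic, with CRE in red, RFP in blue and open circles for libraries outside the comparison. CRE 2-2 and CRE 3-2, at 213 and 292 CPM of *Acan*, lie low on both vertical axes, with 198 and 224 CPM of *Bcan*.

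*Ncan* had 586, 1019 and 1229 CPM in the lowest, the median and the highest RFP library, and 262, 396 and 651 CPM in CRE libraries. The means were 989 ± 202 CPM (SD, n = 10) and 420 ± 111 CPM (SD, n = 11). In 10 of 11 CRE libraries *Ncan* was below every RFP library compared, and only CRE 3-4, at 651 CPM, lay above the lowest of these, RFP 3-1 at 586 CPM. RFP 3-2, outside the comparison, had 529.1 CPM, just below CRE 3-1 and CRE 2-4 at 529.5 and 530.2 CPM. The log2 fold change was -1.25 ± 0.148 (SE, edgeR adjusted p = 4.37e-07), and it ranged from -1.53 to -1.08 over all alternatives, each of them called. It was -1.61, -1.42 and -0.58 among libraries numbered 1, 2 and 3. The edgeR test of a difference between these gave an unadjusted p of 0.0117 and an adjusted p of 0.978, and 1 of all genes passed it.

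*Bcan*, the other abundant lectican, had 166, 412 and 537 CPM in the lowest, the median and the highest RFP library, and 198, 400 and 855 CPM in CRE libraries. The ranges overlapped almost wholly, and the log2 fold change was 0.06 ± 0.204 (SE, edgeR adjusted p = 0.857). The highest CRE value, 855 CPM, came from CRE 1-3, and CRE 3-3, outside the comparison, had 1155 CPM. Both are among the libraries that stood apart in GC content. The lowest values in the comparison came from RFP 3-1, CRE 2-2 and CRE 3-2, with 166, 198 and 224 CPM, which are libraries high in *Acan* for their group. RFP 3-2, outside the comparison, had 158 CPM.

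*Vcan* had 33.3, 55.8 and 83.8 CPM in the lowest, the median and the highest RFP library, and 19.6, 65.2 and 123 CPM in CRE libraries. The CRE range enclosed the RFP range, and the log2 fold change was 0.09 ± 0.249 (SE, edgeR adjusted p = 0.828). The lowest CRE value was that of CRE 1-3 and the highest ones, 123 and 113 CPM, those of CRE 3-1 and CRE 3-4. The log2 fold change was -0.48, 0.02 and 0.72 among libraries numbered 1, 2 and 3, and the test of a difference between them had an edgeR adjusted p of 0.978.

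On a scale per length, CPM per kb of merged exons, *Ncan* was the highest of the 9 genes in RFP libraries, with 98.9 ± 20.2 (SD, n = 10). *Bcan* followed at 45.4 ± 12.6 and *Hapln1* at 34.9 ± 10.2 CPM per kb, which differed by less than the larger SD. *Vcan*, *Hapln4*, *Acan* and *Has3* had means of 3.59, 3.18, 1.87 and 1.62 CPM per kb, and each of these neighbours in the order differed by less than the larger SD. *Has2* and *Hapln2* were last, at 0.282 and 0.0542 CPM per kb. In CRE libraries *Bcan*, at 48.1 ± 19.7 CPM per kb (SD, n = 11), and *Ncan*, at 42.0 ± 11.1 CPM per kb, differed by less than their SD, as did *Acan*, at 10.1 ± 11.4, and *Hapln1*, at 9.9 ± 3.8 CPM per kb.

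The share of *Ncan* in the lectican RNA differed between the groups with no overlap, which held for the CPM of no single lectican. The shares of *Acan*, *Bcan* and *Vcan* overlapped. How often shares or ratios of other genes part the groups is not given here. Of the summed CPM per kb of the 4 lecticans, *Ncan* made up 62.3% to 69.1% in RFP libraries (median 66.1%, n = 10) and 28.2% to 50.7% in CRE libraries (median 40.1%, n = 11). *Bcan* had a share of 22.7% to 35.8% in RFP and 26.2% to 67.4% in CRE libraries. *Acan* had a median share of 0.653% in RFP and 5.66% in CRE libraries, and reached 37.9% in CRE 3-2. The share of *Vcan* ran from 1.24% to 3.66% in RFP and from 0.803% to 6.62% in CRE libraries. The ratio of *Ncan* to *Bcan* per length ran from 1.74 to 3.04 in RFP and from 0.419 to 1.36 in CRE libraries, and that of *Ncan* to *Acan* from 12.0 to 127 and from 0.889 to 14.4. The sum of the 4 lecticans was 84.8 to 186 CPM per kb in RFP and 72.7 to 148 CPM per kb in CRE libraries, and those ranges overlapped. These shares are a description and were not tested.

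**Figure D3:**
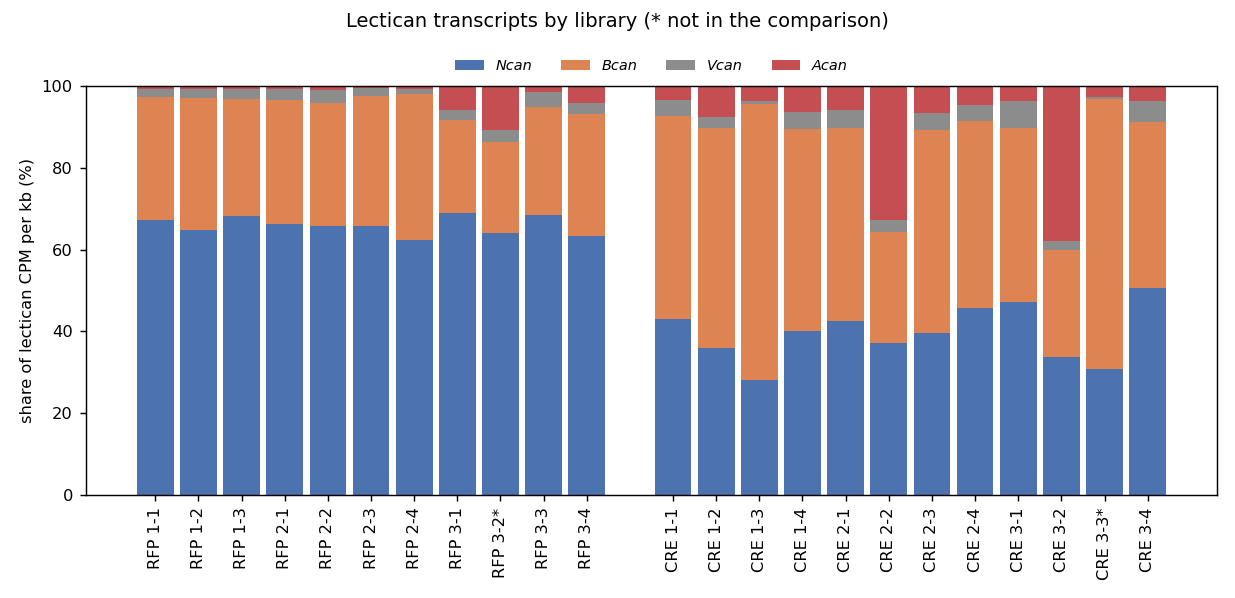
Share of each lectican in the summed CPM per kb of the 4 lecticans (vertical, percent), 1 bar per library, with an asterisk for libraries outside the comparison. *Ncan* makes up 62.3% to 69.1% of the bar in the RFP and 28.2% to 50.7% in the CRE libraries compared.

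Among the link proteins, *Hapln1*, also known as cartilage link protein, was by far the most abundant. It had 77.1, 244 and 356 CPM in the lowest, the median and the highest RFP library, and 6.40, 80.2 and 98.4 CPM in CRE libraries. The means were 249 ± 73.1 CPM (SD, n = 10) and 70.6 ± 27.1 CPM (SD, n = 11). RFP 2-4 was the only RFP library within the CRE range, since the other 9 had 231 CPM or more, and CRE 1-3 was the lowest CRE library. Both had a GC trend opposite to most libraries. The log2 fold change was -1.83 ± 0.283 (SE, edgeR adjusted p = 1.94e-05), and without these libraries it was -1.82 ± 0.134 (SE, edgeR adjusted p = 1.56e-10). It ranged from -2.11 to -1.60 over all alternatives and was called in each of them. Among libraries numbered 1, 2 and 3 it was -2.35, -1.38 and -1.88.

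*Hapln4*, a link protein of the brain, had 6.96, 12.7 and 17.6 CPM in the lowest, the median and the highest RFP library, and 2.40, 7.51 and 16.5 CPM in CRE libraries. In 5 of 11 CRE libraries it was below every RFP library, and the highest CRE values, 16.5 and 16.0 CPM, were those of CRE 3-2 and CRE 2-2, the libraries with the most *Acan*. The log2 fold change was -0.70 ± 0.307 (SE, edgeR adjusted p = 0.0861), which did not pass. It was -1.11 with an edgeR adjusted p of 0.00502 when CRE 2-2 and CRE 3-2 were left out, and its adjusted p ranged from 0.00502 to 0.3 over all alternatives.

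*Hapln2*, a link protein of nodes of Ranvier on myelinated axons, was near the detection limit. It had 0 to 9 counts in RFP libraries, 34 in all, and 0 to 15 counts in CRE libraries, 58 in all. Of 8 oligodendrocyte markers 5 had enough counts to be tested, *Cnp* was lower at a log2 fold change of -0.99 (edgeR adjusted p = 0.00214), and the list summed to 68.0 to 344 CPM in RFP and 90.6 to 139 CPM in CRE libraries. A difference in *Hapln2* was not detectable at this depth.

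*Has3*, which makes shorter hyaluronan chains, had 8.24, 10.1 and 14.5 CPM in the lowest, the median and the highest RFP library, and 1.36, 9.40 and 38.9 CPM in CRE libraries. The CRE libraries spread wider on both sides: 3 of 11 were above and 5 of 11 below every RFP library compared. RFP 3-2, outside the comparison, had 3.95 CPM, and only CRE 1-3 of the CRE libraries compared lay below it. The highest CRE values, 38.9 and 18.3 CPM, were again those of CRE 2-2 and CRE 3-2, and the lowest was that of CRE 1-3. The log2 fold change was 0.19 ± 0.34 (SE, edgeR adjusted p = 0.724). It was -0.84, 0.78 and 0.17 among libraries numbered 1, 2 and 3, and without CRE 2-2 and CRE 3-2 it was -0.38 (edgeR adjusted p = 0.33), so no direction can be given. Exons of *Has3* share 352 bases with *Chtf8* and with *Derpc* on the opposite strand, and reads of these bases cannot be assigned with certainty.

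*Has2*, the synthase of long hyaluronan chains, was detected at low counts, mostly in RFP libraries. It had 3 to 41 counts in RFP libraries, 170 in all, and 0 to 13 counts in CRE libraries, 31 in all. In 9 of 11 CRE libraries its CPM was below that of every RFP library compared, while CRE 2-2 and CRE 3-4, with 8 and 13 counts, lay within the RFP range. RFP 3-2, outside the comparison, had 0 counts, so no CRE library lay below it. *Has2* did not pass the filter on low counts. With no filter, the log2 fold change was -2.52 ± 0.748 (SE, edgeR adjusted p = 0.0168), and with counts summed by first number it was -2.41 ± 0.757 (SE, edgeR adjusted p = 0.0364). Exons of *Has2* share 400 bases with the antisense gene *Has2os*, and reads of that stretch cannot be assigned with certainty.

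**Figure D4:**
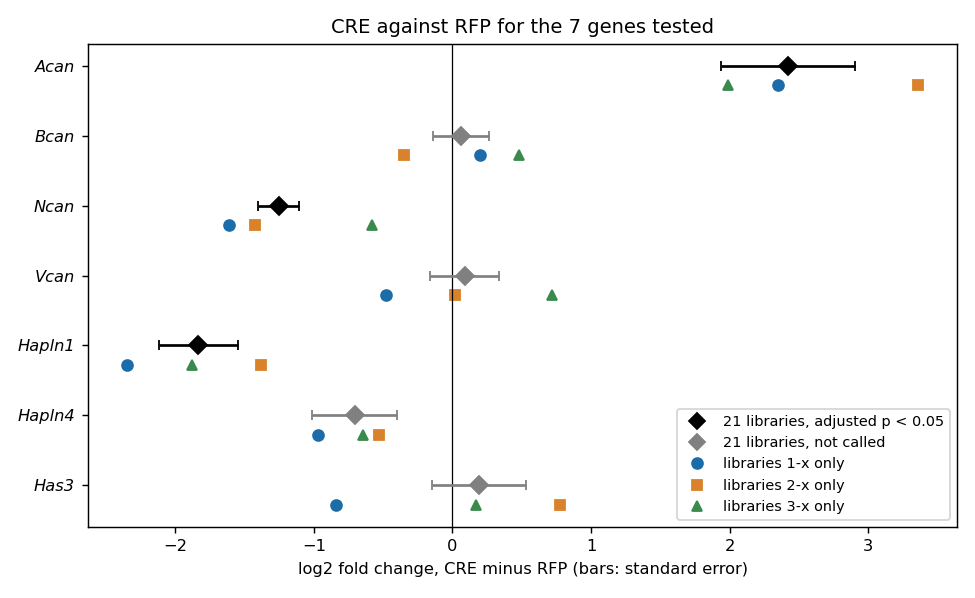
Log2 fold change, CRE minus RFP, of the 7 genes tested (diamonds with the standard error, black where the adjusted p was under 0.05) and the same among libraries numbered 1, 2 or 3 (coloured points). *Acan* lies at 2.42, *Ncan* at -1.25 and *Hapln1* at -1.83, each with all 3 coloured points on 1 side of 0, while *Bcan*, *Vcan* and *Has3* have points on both sides.

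Within the conditions, some of the 9 genes varied together across libraries. Over the 19 libraries left without CRE 1-3 and RFP 2-4, with the mean of each condition subtracted, Pearson correlations of log2 CPM were -0.862 for *Acan* and *Bcan*, 0.839 for *Ncan* and *Vcan*, 0.787 for *Bcan* and *Ncan*, and 0.57 and 0.569 for *Acan* with *Hapln4* and *Has3*. Larger in size than the last 2 were also -0.743 for *Vcan* and *Hapln4*, 0.662 for *Bcan* and *Vcan*, and 0.659 for *Hapln4* and *Has3*. So were -0.629 for *Acan* and *Ncan* and -0.574 for *Ncan* and *Hapln4*. *Hapln1* correlated weakly with *Ncan* at 0.127 and with *Vcan* at 0.128. The points share libraries and normalization, and these values are descriptions. The compared libraries highest in *Acan* for their group, CRE 2-2, CRE 3-2, RFP 3-1 and RFP 3-4, are among the 19. The correlations were not repeated without them. Among 14372 genes, those closest to *Acan* by the same measure were *Lgi2* at 0.935, *Hdac9* at 0.934 and *Slc38a1* at 0.915. None of those 3 was itself called, with log2 fold changes of -0.06, -0.09 and 0.38. Closest to *Ncan* were *Arhgap33* at 0.901, *B3gat2* at 0.894 and *Pcdh19* at 0.886, and of these *Arhgap33* and *B3gat2* were lower in CRE libraries, with log2 fold changes of -1.05 and -1.62 (edgeR adjusted p = 9.1e-05 and 7.88e-06). Closest to *Hapln1* were *Ap3s2* at 0.795, *Epha7* at 0.775 and the unnamed gene ENSMUSG00000106791 at 0.751.

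Other genes of hyaluronan metabolism and binding were called higher more often than lower, 5 against 2 of 13 tested, with a median log2 fold change of 0.51, where the median of all genes was 0.02. Beside this list and those below, 16.4% of all genes tested were called higher and 13.8% lower. *Cd44*, a cell surface receptor for hyaluronan, was higher by 1.67 ± 0.234 on the log2 scale (SE, edgeR adjusted p = 4.88e-06). The hyaluronidases *Cemip2* and *Hyal1* were higher by 0.53 and 0.83 on the log2 scale (edgeR adjusted p = 0.00639 and 0.00768). *Hmmr*, a hyaluronan-binding protein of the mitotic spindle, was lower at a log2 fold change of -1.81 ± 0.371 (SE, edgeR adjusted p = 0.000506), and *Habp4* at -0.28 (edgeR adjusted p = 0.0191). *Hapln3*, the link protein gene beside *Acan*, had a log2 fold change of 1.27 ± 0.521 (SE) and did not pass (edgeR adjusted p = 0.0669).

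Of 18 partners and receptors of lecticans, all tested, 4 were called higher and 7 lower, with a median log2 fold change of -0.10. *Tnc*, tenascin-C, an early glial matrix protein that binds lecticans, was higher at a log2 fold change of 1.69 ± 0.13 (SE, edgeR adjusted p = 4.9e-10). *Nptx2*, a secreted pentraxin that gathers at excitatory synapses on inhibitory neurons, was higher at 1.93 (edgeR adjusted p = 1.3e-05), and *Fbln1*, a fibulin that binds aggrecan and versican, at 1.43 (edgeR adjusted p = 0.000688). *Nptxr*, the membrane-bound pentraxin, was lower at a log2 fold change of -1.15 (edgeR adjusted p = 1.88e-06), and *Rtn4r*, the Nogo receptor, at -1.11 (edgeR adjusted p = 0.000406). *Cspg4*, the NG2 proteoglycan and a marker of oligodendrocyte precursors, was lower at a log2 fold change of -2.22 (edgeR adjusted p = 0.000228). Of 8 oligodendrocyte precursor markers 7 were called lower and 0 higher, with *Olig2* and *Gpr17* at -0.995 and -4.01 (edgeR adjusted p = 0.000839 and 0.00182), and their summed level was 655 to 2140 CPM in RFP and 428 to 1850 CPM in CRE libraries. The part of that in the matrix genes was not tested.

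Enzymes that build chondroitin sulfate, the sugar chains of the lecticans, were called in both directions, 7 higher and 5 lower of 26 tested, with a median log2 fold change of 0.08. *Chst11*, a sulfotransferase of the galactosamine units of chondroitin, was lower at a log2 fold change of -1.18 ± 0.112 (SE, edgeR adjusted p = 1.49e-08). *Ust*, the uronyl sulfotransferase, was lower at a log2 fold change of -0.87 and *Xylt1*, which starts the chain on the core protein, at -0.63 (edgeR adjusted p = 1.66e-06 and 0.00102). *Chpf2*, a chondroitin polymerizing factor, was higher at a log2 fold change of 1.06 (edgeR adjusted p = 3.85e-05), and the sulfotransferases *Chst7* and *Chst15* were higher at 1.296 and 0.56 (edgeR adjusted p = 0.00114 and 0.00386).

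Proteases that cut lecticans and their inhibitors were called higher in 7 and lower in 1 of 15 tested, with a median log2 fold change of 0.82. Of all genes tested, 16.4% were called higher and 13.8% lower. *Adamts1* and *Adamts5*, metalloproteases that cleave aggrecan and versican, were higher at log2 fold changes of 1.56 ± 0.156 and 2.45 ± 0.366 (SE, edgeR adjusted p = 3.64e-08 and 1.23e-05). *Mmp14*, a membrane-bound matrix metalloprotease, was higher at 1.27 (edgeR adjusted p = 5.4e-07). The inhibitors of metalloproteases went both ways. *Timp2* was lower at a log2 fold change of -0.57 (edgeR adjusted p = 0.0107). *Timp1* was higher at 2.88 (edgeR adjusted p = 0.00325), at low mean levels of 0.296 CPM in RFP and 2.3 CPM in CRE libraries. *Timp3* at -0.01 and *Timp4* at -0.43 were not called. Without CRE 2-2 and CRE 3-2, 4 of 14 proteases and inhibitors were called higher and 1 lower.

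**Figure D5:**
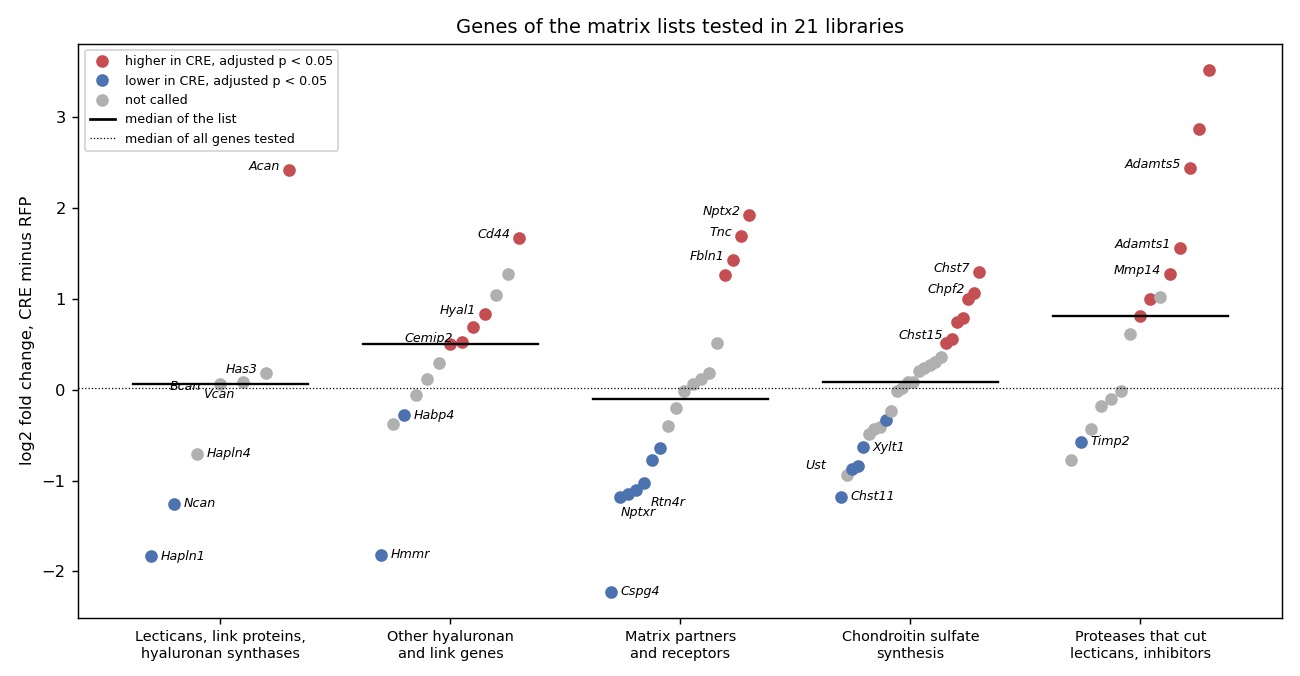
Log2 fold change, CRE minus RFP (vertical), of each tested gene of 5 lists, in red where called higher, blue where called lower and grey otherwise, with solid bars for the median of a list and a dotted line for the median of all genes. List medians were 0.06, 0.51, -0.10, 0.08 and 0.82 from left to right, and the members were chosen with earlier results of these data known.

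Perineuronal nets mostly surround parvalbumin neurons, and markers of GABA neurons were called in both directions, 4 higher and 4 lower of 15. Without CRE 1-3 and RFP 2-4, 2 of these markers were called higher and 5 lower. *Pvalb*, the parvalbumin gene, had 1.20 ± 2.09 CPM (SD, n = 10) in RFP and 4.98 ± 2.91 CPM (SD, n = 11) in CRE libraries, and its log2 fold change was 2.05 ± 0.653 (SE, edgeR adjusted p = 0.0183). Its counts were low, at 0 in 2 of the 21 libraries and at most 144 in a library. *Dlx5* and *Npy* were also higher, at log2 fold changes of 1.04 and 1.63 (edgeR adjusted p = 0.00202 and 0.0152), while *Calb2* and *Vip* were lower, at -1.39 and -2.19 (edgeR adjusted p = 0.00026 and 0.000282). Of 10 astrocyte markers 2 were called higher, *Sox9* at 1.02 and *Gja1* at 0.62 (edgeR adjusted p = 0.000107 and 0.0199), and 4 lower, led by *S100b*, *Slc1a2* and *Aldh1l1* at -1.11, -0.79 and -0.68 (edgeR adjusted p = 0.000547, 0.00134 and 0.0199). Of 10 glutamatergic neuron markers 6 were called lower, with *Camk2a*, *Neurod6* and *Slc17a7* at -1.99, -1.92 and -1.88 (edgeR adjusted p = 8.04e-10, 6.4e-09 and 1.23e-08), and *Slc17a6* was higher at 1.45 (edgeR adjusted p = 0.000104). Endothelial and mural markers, of which 3 of 9 were tested, summed to 17.3 to 69.9 CPM in RFP and 27.8 to 271 CPM in CRE libraries, with the mural genes *Rgs5* and *Pdgfrb* higher at 2.52 and 0.81 (edgeR adjusted p = 1.78e-05 and 0.0176) and the endothelial gene *Kdr* lower at -1.22 (edgeR adjusted p = 0.0346). Fibroblast and mesenchymal markers summed to 524 to 816 CPM and 541 to 937 CPM, with *Fn1* and *Pdgfrl* higher at 1.58 and 2.14 (edgeR adjusted p = 6.78e-05 and 0.000343), and microglia markers to at most 6.56 CPM in RFP and 7.7 CPM in CRE libraries, with *Tmem119* at 3.21 (edgeR adjusted p = 0.000517). Of the 8 microglia markers each was at 0 counts in at least 3 of the 21 libraries, *Cx3cr1* and *Itgam* in 18, and of the endothelial markers *Cldn5* was at 0 in 19. The part of these cell types in the levels of the lecticans, link proteins and synthases was not tested.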

How the data were processed

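The authors prepared stranded mRNA libraries, and the submitters' processing notes name bcl2fastq 2.20.0.422, STAR 2.7.8a and featureCounts 1.5.0-p1, with GRCm39 and Ensembl release 110. The authors deposited 1 table of whole-number counts per gene for each library, without normalization. The strand setting of the counting is not given in the sources used here.

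Genes were named with the GENCODE M39 annotation of GRCm39. The 21 libraries compared were fitted with edgeR 4.0.16 (filterByExpr, TMM factors, estimateDisp, robust glmQLFit, glmQLFTest) in R 4.3.3, with p-values adjusted by the Benjamini-Hochberg method across the 14488 genes that passed the filter, and an adjusted p under 0.05 as a call. CPM were computed with TMM factors over all 23 libraries. Levels per kb used merged exon length. The members and lists were chosen with earlier results of these data known. The text names all members, the 3 called genes with the smallest p in each direction of each list, the 3 genes most correlated with each called member, and *Nedd8*. From the marker lists, 2 genes that this rule takes are not reported here. *Hapln3*, not called, and the inhibitors *Timp1*, *Timp3* and *Timp4* were added after their values were seen. Alternatives were DESeq2 1.42.0, limma-voom (limma 3.58.1), RLE size factors, no filter, other sets of libraries, blocks, sums and removal of each library's GC trend. A further 3 alternatives, CRE 1-3 and RFP 2-4 left out with a block for the first number of the library names, CRE 2-2 and CRE 3-2 left out, and the unadjusted p in a limit of fold and p, were added after seeing the data. The fits were tested on simulated data. No pair of libraries of a group agreed within sampling noise, since the lowest chi-square per degree of freedom was 10.9. SD and SE include the spread between libraries.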

Additional observations from a re-analysis of the deposited data

Results flagged for a closer look

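*Hapln1* in RFP 2-4 was 77.1 CPM, and its gap to the next RFP library took 0.549 of the range of the 10 RFP libraries, above Dixon's critical value of 0.466. Chance passes this limit in about 1 in 20 groups. RFP 2-4 also had a GC trend of 0.395 and 3.43% mitochondrial counts, and the part of these in its *Hapln1* level was not tested.

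In CRE 3-3, a library outside the comparison, *Acan* had 40.9 CPM and *Bcan* 1155 CPM, both above every RFP library compared. That library held 60 counts of *Acan* and 1693 of *Bcan*, and its GC trend was 0.53. RFP 3-2, the other library outside the comparison, had 374 counts and 67.2 CPM of *Acan*, which was above CRE 3-3. With all 23 libraries the log2 fold change of *Acan* was 1.98 (edgeR adjusted p = 0.00335).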

How the results depend on the processing

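Calls of *Ncan* and *Hapln1* held in all 37 alternatives and that of *Acan* in 36. With counts summed by the first number of the library names, 0 of 9 members tested were called higher and 4 lower, *Ncan*, *Hapln1*, *Hapln4* and *Has2*, against 2166 and 2032 of all 18417 genes tested there. Past a log2 fold change of 1.3 and a -log10 adjusted p of 6, where the comparison had 0 members, was 1 member with DESeq2, on the libraries left by the methods (all but CRE 1-3 and CRE 3-3) and without CRE 1-3 and RFP 2-4, and 2 with the GC trend removed. With the unadjusted p in place of the adjusted p it was 1 member. Leaving out 1 library or 1 first number at a time gave 0 to 1. *Hapln4* gained a call in 7 alternatives: limma-voom, the number after the hyphen as a block, sums by first number, GC trend removed, and without CRE 2-2, CRE 3-2 or both. Uncalled log2 fold changes changed sign as follows, and the cause was not tested. *Bcan* was -0.0016 on the libraries left by the methods, -0.0401 without CRE 1-3 and RFP 2-4, -0.011 with sums, -0.0062 with the GC trend removed and from -0.102 to 0.36 in leave-one-out fits. *Vcan* was -0.0042 with limma-voom and from -0.23 to 0.34 in leave-one-out fits. *Has3* was -0.14 with limma-voom, -0.38 without CRE 2-2 and CRE 3-2 and from -0.31 to 0.56 in leave-one-out fits. Of the proteases and inhibitors 4 were called higher without CRE 2-2 and CRE 3-2, in place of 7. The other list counts of the matrix genes stayed within 1.5 times without those libraries and without CRE 1-3 and RFP 2-4. The test of a difference between first numbers was not repeated under the alternatives.

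Whether the first number of the library names pairs the samples was not settled. Correlations of the deviations of CRE and RFP were 0.0273, 0.0207 and 0.141 within a number. Between different numbers they ran from -0.191 to 0.141, and 13 of 21 libraries correlated best with their own number. As a block the first number gave 1 member called higher and 2 lower, as in the comparison. The log2 fold changes were then 2.63 for *Acan*, -1.25 for *Ncan* and -1.85 for *Hapln1*. With CRE 1-3 and RFP 2-4 also left out, the block put 1 member past the fold and adjusted p limits and gave -0.015 for *Bcan*. The number after the hyphen as a block gave 1.82 for *Acan*, -0.96 for *Hapln4* (edgeR adjusted p = 0.0105) and -0.048 for *Has3*. Library totals from 7430401 counts upward leave *Has2* at no more than 41 and *Hapln2* at no more than 15 counts in a library.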
